A study of Homo sapiens with 30 samples.

Results

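The 34 genes described here encode enzymes that make serine, glycine, asparagine, proline and other amino acids, enzymes that carry one-carbon units on folate, and membrane transporters of amino acids. Their rows were found by gene symbol in a table of 60675 genes, and 33 of them passed the filter on low counts. The list itself was chosen with earlier results of these data known, so that its counts are not independent of those results. The cells were A549, an established line of human lung carcinoma epithelium. Treatment lasted 24 h, with vehicle or with an ethanol extract of 1 of 4 Korean herbal formulas. Soshiho-tang and Yijin-tang were given at 20, 100 and 500 µg/mL, with 3 libraries at each dose. Okbyeongpung-san was given at the same doses, with 2 libraries each, and Soyo-san at the same doses, with 1 library each. The 3 vehicle libraries had 0.1% DMSO per the labels, although the text of the series gives 2%, and the labels were followed. All 30 libraries are of polyadenylated RNA. The labels do not say whether replicates came from separate cultures, so that p-values measure only the spread between these libraries, which may be technical.

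Serine is made from a glycolytic intermediate by PHGDH, PSAT1 and PSPH in turn, and serine hydroxymethyltransferases convert it to glycine while loading a one-carbon unit on folate. Folate enzymes of the mitochondria (SHMT2, MTHFD2, MTHFD1L, ALDH1L2) and of the cytosol (SHMT1, MTHFD1) run parallel pathways. In many cells a shortage of amino acids, or other stress that leads to phosphorylation of eIF2α, raises translation of the transcription factor ATF4, which is known to bind DNA with C/EBP partners and to activate genes such as ASNS, PSAT1, MTHFD2 and SLC7A11.

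Library totals ranged from 19833144 to 38008463 counts. Vehicle libraries had the lowest totals, up to 22327652, against at least 24560759 in treated libraries, and the highest share of the 13 messenger RNAs of mitochondrial DNA, 10.5% to 10.9% against 6.22% to 9.89%. For this reason the lowest dose of each extract served as a second reference beside vehicle. Replicate 2 of Okbyeongpung-san at 500 µg/mL stood apart from replicate 3, with 38008463 against 27540408 counts and 9.89% against 6.73% mitochondrial messenger RNA. The 3 Soyo-san libraries and replicate 3 of each Okbyeongpung-san dose carry batch letter D in their titles and the others E. The meaning of these letters is not given. The line's markers KRT8, KRT18, AKR1B10, AKR1C1, ALDH1A1 and NQO1 were abundant in every library, EPCAM was low at 3.91 to 6.35 CPM, and CDKN2A, which is deleted in this line, had 0 to 3 counts. CPM relate the count of a gene to the library total after TMM scaling, and fewer cells of a type cannot be told apart from less RNA per cell in such shares.

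In vehicle, the members spanned a wide range of levels per length, given as RPKM (CPM per kilobase of exon). SLC7A5, the large neutral amino acid transporter, was highest at 797 ± 12.6 RPKM (SD, n = 3). Its partner SLC3A2 followed at 167 ± 4.79, the glutamine transporter SLC1A5 at 136 ± 3.60 and PSAT1 at 122 ± 0.994 RPKM. These 4 did not overlap each other across the vehicle libraries. At the other end were the transporters SLC43A1 at 1.11 ± 0.0658 RPKM and SLC1A1 at 0.396 ± 0.0475 RPKM, while the glutamate transporter SLC1A3 had no count in any vehicle library and was not tested. ASNS and MTHFD1, at 21.2 ± 0.744 and 21.6 ± 0.0286 RPKM, were among the 7 of 33 neighbouring pairs in this order whose vehicle ranges overlapped.

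At 500 µg/mL of Soshiho-tang most of the list was raised. Against the 20 µg/mL dose of the same extract, 21 of the 33 tested members rose and 3 fell (MTHFD1, CTH and SLC7A6), where 10.3% of all 17459 tested genes rose and 10.2% fell at an edgeR adjusted p below 0.05. The median log2 fold change was 0.45 over the members and 0.0033 over all genes. Against vehicle, 22 members rose and 2 fell, with 17.2% and 16% of all genes, and the 22 include all 21. The 3 libraries of this dose lay above each of the other 27 libraries in 21 members, as did 6.05% of all tested genes, and below each of them in 1 member, MTHFD1, as did 4.87%. The 3 markers of fibroblasts summed to 21.1 to 26.1 CPM at 500 µg/mL and 29.7 to 35.4 CPM at 20 µg/mL, with PDGFRB at 2 to 11 counts over all libraries. The immune markers summed to 10.7 to 15.9 CPM against 7.83 to 10.8 CPM, with no CD3E count in any library and at most 1 of PTPRC, and mitochondrial messenger RNA made up 6.68% to 7.29% against 6.99% to 8.18%. The part of these in the result was not tested.

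**Figure D1:**
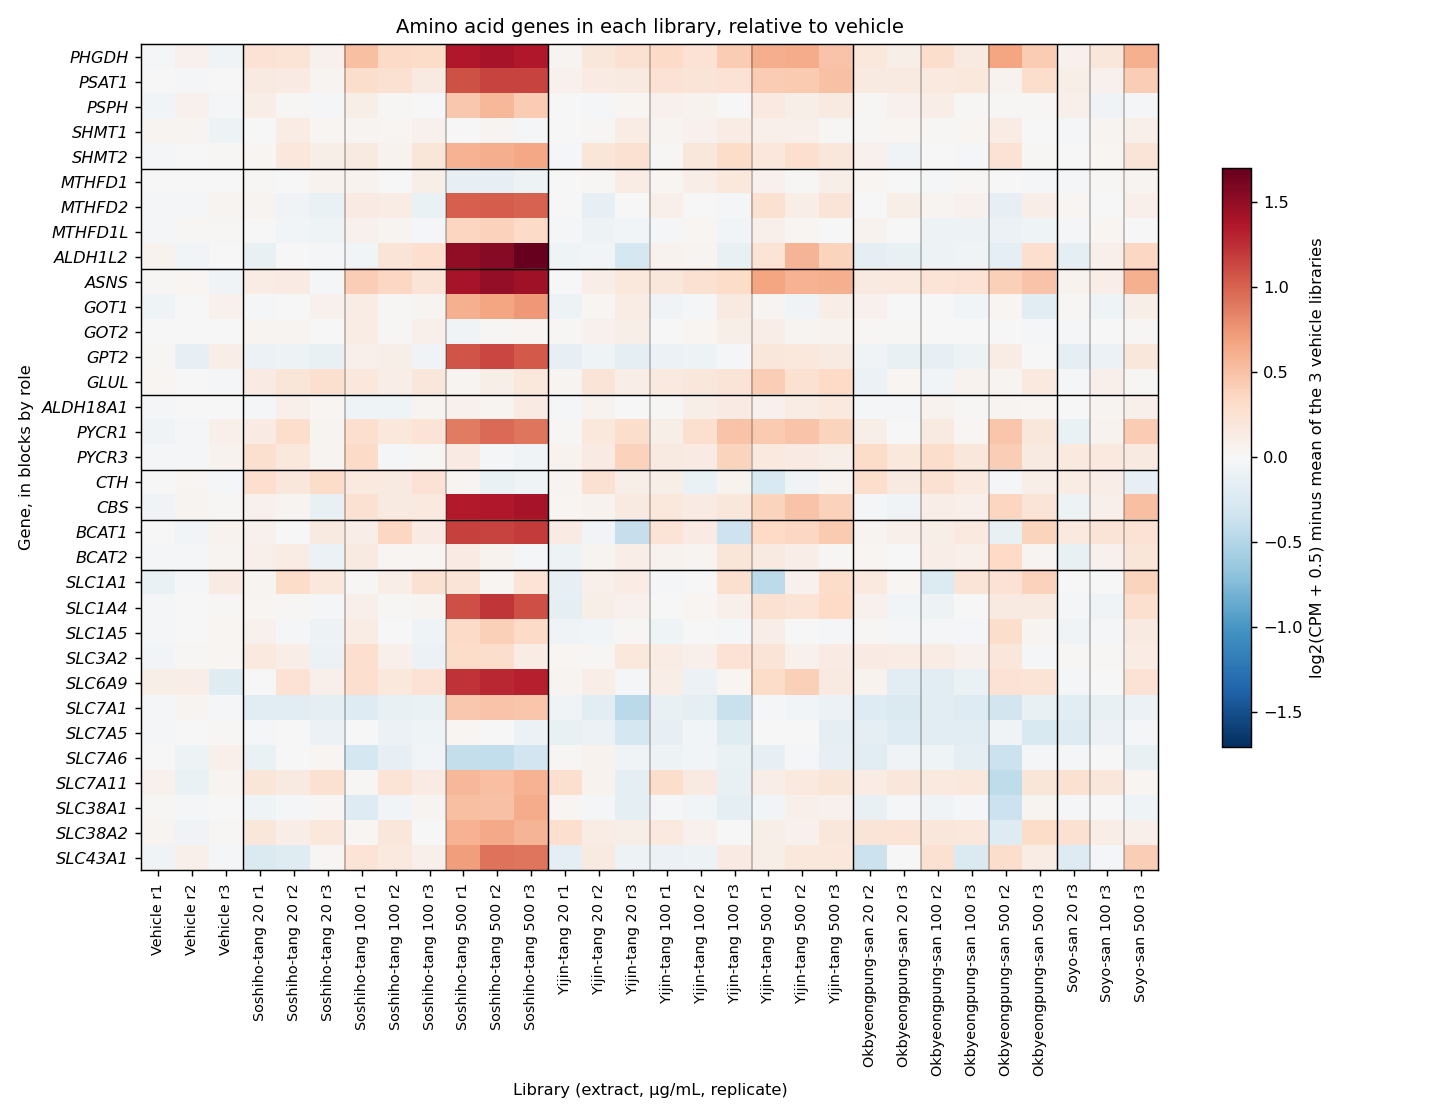
Color map of 33 members (rows, in blocks by role) in 30 libraries (columns), as log2(CPM + 0.5) minus the mean of the 3 vehicle libraries; red is higher and blue lower. The 3 columns of Soshiho-tang at 500 µg/mL carry the deep red of the members that rose, while SHMT1, GOT2, ALDH18A1, BCAT2 and SLC7A5 stay pale in them.

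Promoters of the members were searched for TGATGNAA, the core of the composite element that ATF4 and C/EBP proteins are known to bind. Both strands were searched, and no other motif was. RefSeq promoters (GRCh38.p14, 250 bases before to 50 after the start of the gene) were at hand for 26 of the 34 members. The element was present in 8 of them (30.8%), and in 1003 of all 27305 promoters of that length (3.67%). The list holds genes already known as ATF4 targets and was chosen with earlier results of these data known. Its share is therefore no test of a shared regulator. Among members with a promoter at hand, the element was found in 6 of the 15 that rose (40%) and in 0 of the 3 that fell. The other members that rose, ALDH1L2, GPT2, PYCR1, SHMT2, PSPH and SLC7A11, had no promoter at hand and are not in this share. The element was also in 1 of the 7 with a promoter at hand that were not called (14.3%), SLC3A2, and in SLC1A3, which was not tested. These shares were not tested against each other. The 30 bases around the match are shown for the 6 members with a match that rose, 5′ to 3′ on the strand of the gene, with the element in capitals.
ASNS: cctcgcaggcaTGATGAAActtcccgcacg
BCAT1: tgtcttcctgcTGATGCAAtccgctaggtc
GOT1: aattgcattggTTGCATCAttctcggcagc
MTHFD1L: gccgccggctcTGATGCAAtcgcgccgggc
SLC38A1: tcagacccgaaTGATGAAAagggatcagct
SLC7A1: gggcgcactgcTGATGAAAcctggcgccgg
The ASNS window lies at chr7:97872458-97872487 on the minus strand, and its element starts at position -68 relative to the RefSeq start of the gene. The BCAT1 window is at chr12:24949131-24949160 (minus strand), the GOT1 window at chr10:99430804-99430833 (minus strand) and the MTHFD1L window at chr6:150866346-150866375 (plus strand). The windows of SLC38A1 at chr12:46266502-46266531 and SLC7A1 at chr13:29595663-29595692, both on the minus strand, hold the element next to the gene start, at positions -4 and 7. In GOT1 the capitals are the reverse complement, since its match is on the other strand. PHGDH, PSAT1, MTHFD2, CBS, SLC1A4, SLC1A5, SLC6A9, SLC38A2 and SLC43A1, which rose as well, had no match in this window. A match describes these letters only, and a missing match says only that they are not in this window.

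Of the 5 genes of serine and glycine synthesis, 4 rose between 20 and 500 µg/mL of Soshiho-tang. PHGDH (chr1:119648411-119744226), which commits carbon to the pathway, had 58.1, 61.5 and 56.4 CPM in vehicle, 69.4, 69.2 and 61.9 CPM at 20 µg/mL and 152, 156 and 152 CPM at 500 µg/mL. The 3 libraries of the highest dose lay far above all others, which reached 93.6 CPM at most (log2 fold change 1.20, SE 0.07, edgeR adjusted p = 1.19e-11). PSAT1 (chr9:78297143-78330093), the phosphoserine transaminase, had 268, 264 and 268 CPM in vehicle, 297, 294 and 276 at 20 µg/mL and 568, 591 and 592 at 500 µg/mL. The 3 highest-dose libraries stood clear of both other groups (log2 fold change 1.01, SE 0.05, edgeR adjusted p = 3.64e-13). PSPH, the phosphatase that releases serine, rose less, by 0.45 ± 0.05 (log2, SE), with 29.7 to 32.5 CPM at the lowest and 40.9 to 44.6 CPM at the highest dose. SHMT2, the mitochondrial hydroxymethyltransferase, rose by 0.52 ± 0.07, while cytosolic SHMT1 had a log2 fold change of -0.04 ± 0.05 and overlapping libraries. Exons of SHMT1 overlap SMCR8 on the opposite strand, which has a similar count, and the strand setting of the counting is not given in the sources used here, so its values are uncertain.

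Among the 4 folate enzymes beyond SHMT, the 3 of the mitochondria rose and the cytosolic one fell. ALDH1L2 (chr12:105019784-105084577), which oxidizes formyl-folate in mitochondria, had 26.0, 24.1 and 24.9 CPM in vehicle, 22.8, 25.1 and 24.3 at 20 µg/mL and 71.9, 74.2 and 82.1 at 500 µg/mL of Soshiho-tang. This was the largest change of the list and at least 71.9 CPM stood against at most 37.5 CPM in the other 27 libraries (log2 fold change 1.66, SE 0.10, edgeR adjusted p = 1.5e-11). Its exons overlap C12orf45 on the opposite strand, with a mean count of 488 against 878.5 for ALDH1L2. MTHFD2 (chr2:74198562-74217565), the mitochondrial methylene-folate dehydrogenase, had 221, 219 and 231 CPM in vehicle, 231, 214 and 208 at 20 µg/mL and 452, 458 and 450.3 at 500 µg/mL. The highest dose again stood clear of all other libraries (log2 fold change 1.06, SE 0.07, edgeR adjusted p = 1.75e-11). MTHFD1L, the mitochondrial formate-producing synthetase, rose, with 45.6 to 48.5 CPM at the lowest and 60.7 to 63.4 CPM at the highest dose (0.41 ± 0.04 log2, SE).

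MTHFD1 (chr14:64388031-64463457), the trifunctional enzyme of the cytosol, had 203, 202 and 203 CPM in vehicle, 206, 204 and 212 at 20 µg/mL and 184, 184 and 190.5 at 500 µg/mL. The 3 highest-dose libraries were the lowest of all 30, but the difference was small (log2 fold change -0.15, SE 0.04, edgeR adjusted p = 0.014). The call rests on few libraries: the adjusted p was 0.0605 without replicate 1 and 0.0579 without replicate 2 of the 500 µg/mL dose, and 0.0791 without replicate 3 of the 20 µg/mL dose. It was also lost without the filter on low counts (adjusted p = 0.0814) and with the transcript length trend removed (0.0672). Against vehicle the MTHFD1 call was lost without any 1 vehicle library or replicate 1 or 2 of the 500 µg/mL dose (0.0801 to 0.121), without the filter (0.362) and with the length trend removed (0.32).

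Ratios of partner genes per library show the unequal change without regard to library scaling. The RPKM ratio of MTHFD2 to MTHFD1 was 2.09 to 2.19 in vehicle, 1.89 to 2.17 at 20 µg/mL and 4.55 to 4.80 at 500 µg/mL of Soshiho-tang. For SHMT2 to SHMT1 it was 2.94 to 2.97 at 20 µg/mL and 4.22 to 4.55 at 500 µg/mL. The cytosolic and mitochondrial aspartate transaminases, GOT1 and GOT2, showed the opposite compartment, with a GOT1 to GOT2 ratio of 0.214 to 0.237 at 20 µg/mL and 0.353 to 0.368 at 500 µg/mL. The ratio of PYCR1 to PYCR3 was 2.89 to 3.44 at the lowest and 5.36 to 6.33 at the highest dose, and that of BCAT1, the cytosolic branched-chain transaminase, to mitochondrial BCAT2 was 0.785 to 1.02 and 1.76 to 2.02. In all 5 pairs the 3 libraries of the highest dose lay above the 3 of the lowest dose; the ratios were not tested.

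**Figure D2:**
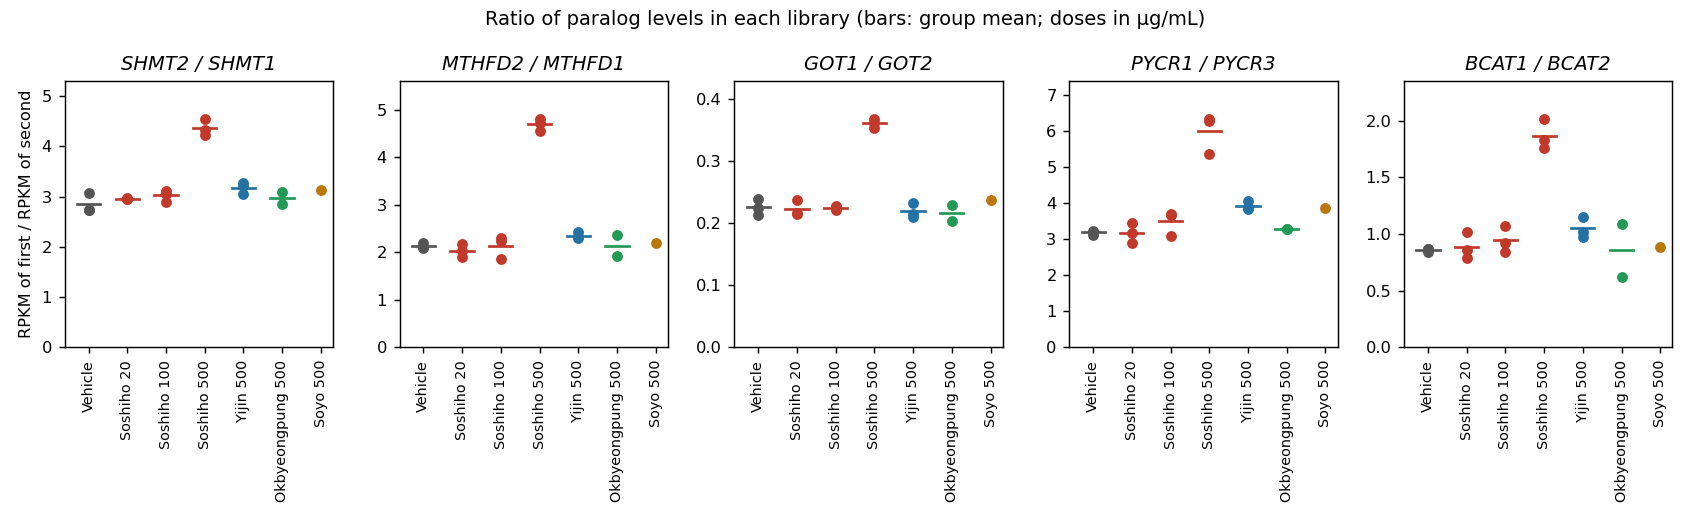
Ratio of RPKM of 2 related genes in each library (y axis, from 0; points are libraries, bars group means) for vehicle, 3 doses of Soshiho-tang and the 500 µg/mL dose of the other extracts (x axis). In each panel the 3 points of Soshiho-tang at 500 µg/mL lie above all other points shown.

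Of the 5 enzymes of asparagine, aspartate, alanine and glutamine, 3 rose. ASNS (chr7:97852118-97872542), asparagine synthetase, had 95.9, 96.4 and 90.4 CPM in vehicle, 103, 104 and 92.6 at 20 µg/mL, 127, 120.3 and 109.7 at 100 µg/mL and 249, 266 and 256 at 500 µg/mL of Soshiho-tang. The highest dose was 2.57-fold above the lowest without overlap (log2 fold change 1.36, SE 0.06, edgeR adjusted p = 1.45e-14). GPT2 (chr16:46884378-46931297), the mitochondrial alanine transaminase, had 23.5, 21.0 and 25.2 CPM in vehicle, 21.6, 21.8 and 21.3 at 20 µg/mL and 49.3, 51.5 and 48.5 at 500 µg/mL. It rose 2.31-fold (log2 fold change 1.21, SE 0.06, edgeR adjusted p = 2.15e-13). GOT1 (chr10:99396870-99431569) had 43.4, 45.4 and 48.2 CPM in vehicle, 44.7, 45.2 and 48.1 at 20 µg/mL and 69.8, 72.8 and 76.2 at 500 µg/mL. Vehicle and 20 µg/mL overlapped, and 500 µg/mL lay above both (log2 fold change 0.67, SE 0.07, edgeR adjusted p = 6.87e-08). GOT2 (-0.03 ± 0.04 log2, SE) and GLUL, glutamine synthetase (-0.10 ± 0.06), did not pass the test.

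One gene of each remaining small enzyme group rose. PYCR1 (chr17:81932384-81942412), the mitochondrial enzyme of the last step to proline, had 71.4, 73.5 and 78.9 CPM in vehicle, 81.8, 91.9 and 76.8 at 20 µg/mL and 138, 146 and 141 at 500 µg/mL (log2 fold change 0.76, SE 0.09, edgeR adjusted p = 4.12e-07). PYCR3 (-0.15 ± 0.10 log2, SE) and ALDH18A1, which acts earlier in that pathway (0.05 ± 0.05), did not pass the test. BCAT1 (chr12:24810022-24949459) had 93.6, 91.3 and 97.8 CPM in vehicle, 99.0, 94.0 and 105 at 20 µg/mL and 212, 209.6 and 215 at 500 µg/mL. It rose 2.14-fold against the lowest dose (log2 fold change 1.10, SE 0.13, edgeR adjusted p = 5.7e-07), while BCAT2 had 0.01 ± 0.07.

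The 2 transsulfuration enzymes, which act in sequence from homocysteine to cysteine, went in opposite directions. CBS (chr21:43053191-43076943) had 22.9, 24.9 and 24.2 CPM in vehicle, 25.2, 24.8 and 21.9 at 20 µg/mL and 61.7, 62.2 and 64.2 at 500 µg/mL. No other library was above 34.3 CPM (log2 fold change 1.39, SE 0.06, edgeR adjusted p = 1.22e-14); the near-identical copy CBSL held a mean of 4.73 counts against 863, so the split of reads between them is uncertain. CTH (chr1:70411218-70439851) had 3.46, 3.58 and 3.39 CPM in vehicle, 4.33, 4.06 and 4.41 at 20 µg/mL and 3.62, 3.18 and 3.28 at 500 µg/mL. The highest dose was below the lowest dose (log2 fold change -0.34, SE 0.10, edgeR adjusted p = 0.0188) but overlapped vehicle, where the log2 fold change was -0.05 ± 0.11 (adjusted p = 0.804). The CTH call was lost without replicate 1 (adjusted p = 0.0583) or 3 (0.0761) of the 20 µg/mL dose, without replicate 2 (0.0877) or 3 (0.0606) of the 500 µg/mL dose, without the filter on low counts (0.122) and with DESeq2 (0.083).

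Of the 12 tested transporters, 8 rose and 1 fell at 500 against 20 µg/mL of Soshiho-tang. SLC6A9 (chr1:43991500-44031467), the glycine transporter, had 10.4, 10.5 and 8.33 CPM in vehicle, 9.66, 11.6 and 10.3 at 20 µg/mL and 23.4, 24.2 and 25.0 at 500 µg/mL (log2 fold change 1.20, SE 0.09, edgeR adjusted p = 2.73e-10). SLC1A4 (chr2:64988477-65023865), which carries alanine, serine and cysteine, had 31.5, 32.3 and 32.8 CPM in vehicle, 32.8, 32.7 and 31.6 at 20 µg/mL and 69.6, 75.4 and 69.2 at 500 µg/mL (log2 fold change 1.14, SE 0.06, edgeR adjusted p = 3.87e-13). The changes were 2.30-fold and 2.21-fold, and both genes stood clear of every other library. SLC43A1 (chr11:57484534-57515786), a carrier of large neutral amino acids, had 3.72, 4.17 and 3.86 CPM in vehicle, 3.23, 3.34 and 3.98 at 20 µg/mL and 6.73, 7.85 and 7.81 at 500 µg/mL (log2 fold change 1.08, SE 0.13, edgeR adjusted p = 1.01e-06). SLC7A1 (chr13:29509410-29595688), the cationic amino acid transporter, had 142, 149 and 144 CPM in vehicle, 127, 127 and 129.8 at 20 µg/mL and 199, 203 and 202 at 500 µg/mL (log2 fold change 0.66, SE 0.07, edgeR adjusted p = 2.54e-07). For SLC7A1 vehicle lay between the lowest and the highest dose, so that the change against vehicle was smaller, 0.47 ± 0.07 (log2, SE).

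The other transporters that rose carry glutamine and neutral amino acids, or cystine. The log2 fold change was 0.57 ± 0.08 (SE) for SLC38A1, 0.44 ± 0.08 for SLC38A2 and 0.36 ± 0.06 for SLC1A5, whose values are uncertain without the strand setting. SLC7A11, the cystine and glutamate exchanger, rose, with 541 to 583 CPM at the lowest and 693 to 730.1 CPM at the highest dose (log2 fold change 0.35, SE 0.12, edgeR adjusted p = 0.0322), a call lost when any 1 of replicates 1, 2 and 3 of the highest dose (adjusted p = 0.0673, 0.0614 and 0.0829) or replicates 1 and 2 of the lowest dose (0.0674 and 0.0926) was left out. SLC3A2 passed the test against vehicle (log2 fold change 0.25, SE 0.08, edgeR adjusted p = 0.021), a call lost without vehicle replicate 1 (0.0773) or replicate 1 (0.0728) or 2 (0.0777) of the 500 µg/mL dose; against 20 µg/mL it had 0.18 ± 0.08, and its libraries overlapped. SLC7A5, the most abundant member, had 0.03 ± 0.06, and the glutamate transporter SLC1A1, at 1.63 to 2.07 CPM over both doses, had -0.03 ± 0.19.

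SLC7A6 (chr16:68264516-68301823), an exchanger of cationic for neutral amino acids, was the transporter that fell. It had 69.4, 65.1 and 73.3 CPM in vehicle, 64.2, 69.3 and 71.0 at 20 µg/mL and 52.1, 51.5 and 55.1 at 500 µg/mL of Soshiho-tang. The highest dose was below vehicle and below the lowest dose (log2 fold change -0.37, SE 0.07, edgeR adjusted p = 0.000832). Replicate 2 of Okbyeongpung-san at 500 µg/mL reached a similarly low level, 53.6 CPM. SLC7A6 shares exon positions with SLC7A6OS, and SLC6A9 with CCDC24, on opposite strands.

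**Figure D3:**
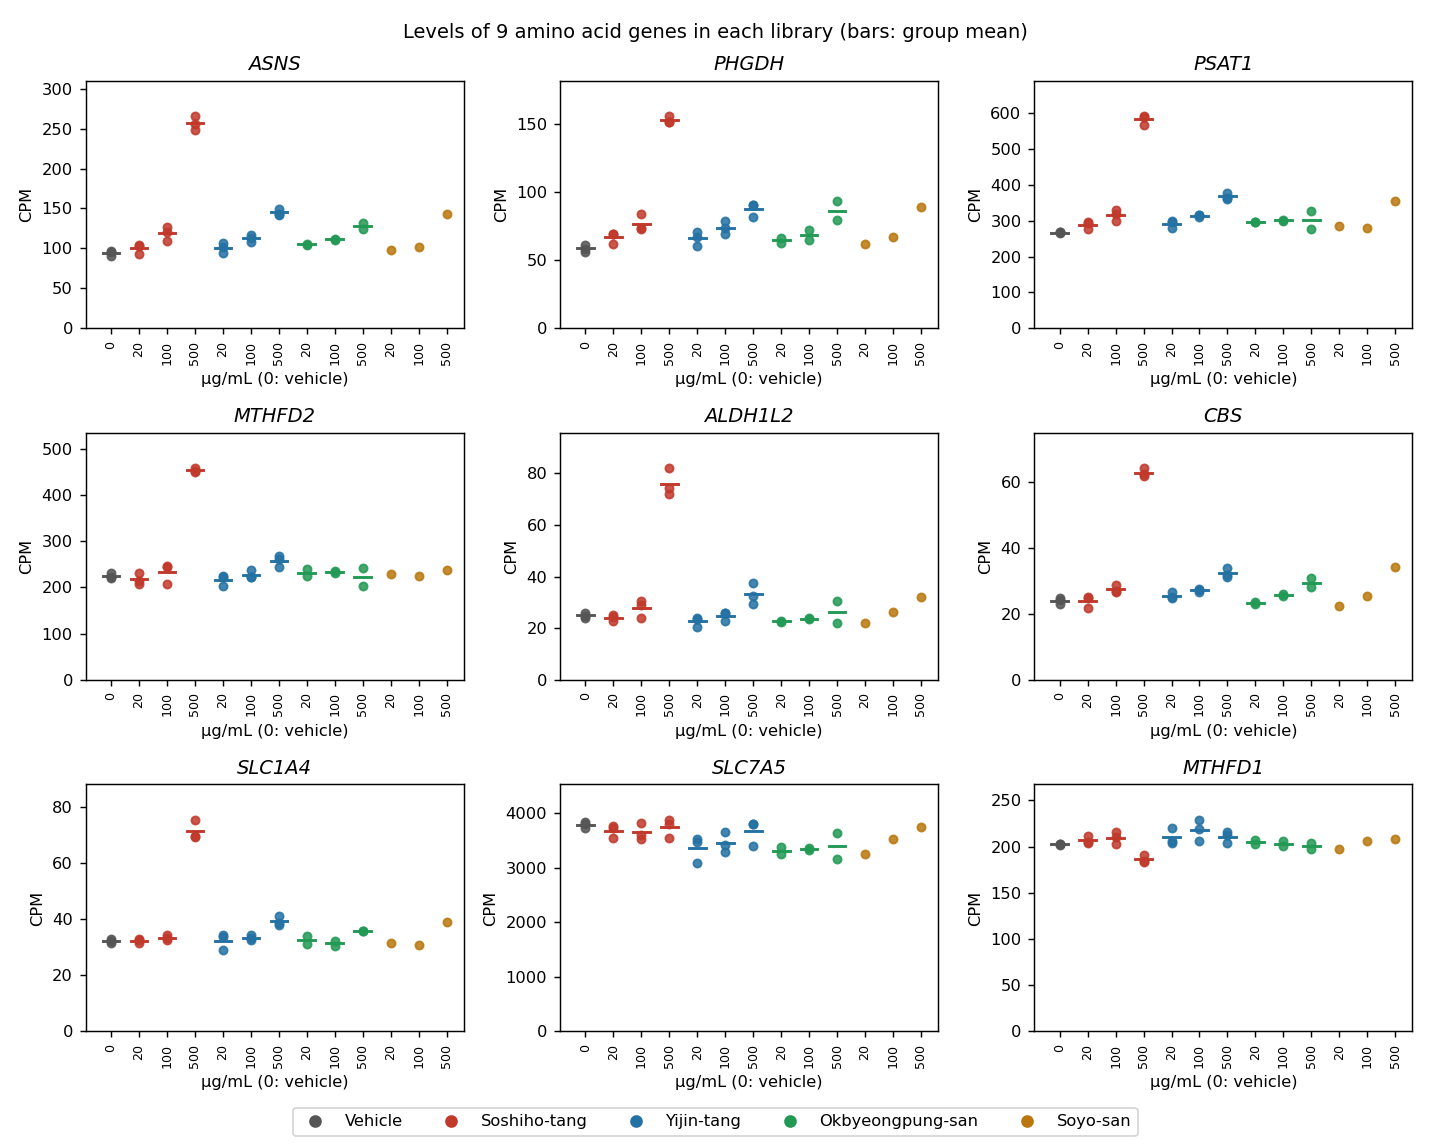
CPM of 9 members (panels, y axes from 0) in each library by dose in µg/mL (x axis, 0 is vehicle); points are libraries and bars group means. ASNS, PHGDH, PSAT1, MTHFD2, ALDH1L2, CBS and SLC1A4 have their 3 highest points at 500 µg/mL of Soshiho-tang, SLC7A5 shows no such step, and MTHFD1 has its 3 lowest points there.

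Lower doses of Soshiho-tang moved few members. At 100 µg/mL, 4 rose against vehicle and 0 fell, where 5.57% of all tested genes rose and 5.19% fell. In 12 members all 3 libraries lay above the vehicle libraries and in 1 all 3 lay below, and the share of all genes was not counted. The 4 called, all among those 12, were PHGDH (0.39 ± 0.07 log2, SE), ASNS (0.33 ± 0.06), PSAT1 (0.24 ± 0.05) and CBS (0.19 ± 0.06). Of these, CBS had an edgeR adjusted p of 0.042, which became 0.107 without the filter on low counts, 0.0632 with only the groups compared, 0.055 with DESeq2, and 0.0637 to 0.19 without any of 5 of the 6 libraries. At 20 µg/mL 1 member rose, GLUL (log2 fold change 0.21, SE 0.06, edgeR adjusted p = 0.0338), where 4.06% of all genes rose and 3.96% fell, and this call was lost when any 1 of the 6 libraries was left out. Between 100 and 20 µg/mL, 0 members and 0% of all genes were called by edgeR or, for the members, by DESeq2. At an unadjusted edgeR p below 0.05, 6 members were higher at 100 µg/mL (PHGDH, PSAT1, ASNS, GPT2, CBS and SLC43A1) and 0 were lower. The share of all genes at that unadjusted p was not counted, so this count does not set the members apart.

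Yijin-tang at 500 µg/mL moved a smaller set, and by less. Against its own 20 µg/mL dose, 7 members rose and 0 fell, where 0.286% of all genes rose and 0.418% fell. The 7 were PHGDH, PSAT1, ALDH1L2, ASNS, GPT2, CBS and SLC1A4, and all 7 are among the 21 that rose with Soshiho-tang. ASNS had 94.1, 102 and 106 CPM at 20 µg/mL and 149.6, 142 and 143 CPM at 500 µg/mL (log2 fold change 0.52, SE 0.06, edgeR adjusted p = 5.82e-06). ALDH1L2 had 23.7, 24.1 and 20.3 CPM and 29.4, 37.5 and 32.6 CPM (log2 fold change 0.55, SE 0.10, edgeR adjusted p = 0.00676). PHGDH had 60.6, 67.1 and 70.5 CPM and 90.6, 90.8 and 82.2 CPM (log2 fold change 0.41, SE 0.07, edgeR adjusted p = 0.0037). In these 3, as in the other 4, the highest dose did not overlap the lowest, in the same libraries that gave the calls. Over the whole list the highest dose lay above the lowest without overlap in 15 members and below it in 0, and the share of all genes was not counted.

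The other 4 calls with Yijin-tang were smaller changes. PSAT1 rose, with 279.9 to 298 CPM at the lowest and 362 to 379 CPM at the highest dose (0.34 ± 0.05 log2, SE) and so did CBS, with 24.7 to 26.7 and 31.2 to 33.9 CPM (0.34 ± 0.06). GPT2 rose, with 20.8 to 22 CPM at the lowest and 25.9 to 26.5 CPM at the highest dose (0.30 ± 0.06) and so did SLC1A4, with 28.8 to 34.5 and 38.1 to 41.0 CPM (0.27 ± 0.06). Calls of single members depended on single libraries. The adjusted p of ALDH1L2 was 0.0738 without replicate 2 of the highest and 0.06 without replicate 3 of the lowest dose, and that of GPT2 was 0.0519 and 0.0508. For SLC1A4 it was 0.0525 and 0.157 without replicates 1 and 3 of the highest dose and 0.128 without replicate 1 of the lowest. With only the 2 groups compared in the fit, the calls of GPT2 (0.099), CBS (0.0665) and SLC1A4 (0.327) were lost. Among members that did not pass, BCAT1 had 0.46 ± 0.13 (adjusted p = 0.116) and MTHFD2 0.25 ± 0.07 (adjusted p = 0.0958).

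Against vehicle, 12 members rose at 500 µg/mL of Yijin-tang and 0 fell, where 8.12% of all genes rose and 7.56% fell. These were ASNS (0.62 on the log2 scale), PHGDH (0.58), PSAT1 (0.46), PYCR1 (0.43), CBS (0.42), ALDH1L2 (0.41), BCAT1 (0.38), GLUL (0.34), SLC6A9 (0.30), SLC1A4 (0.28), SHMT2 (0.22) and MTHFD2 (0.20). Leaving out any 1 of the 6 libraries left 8 or 9 members called. BCAT1 (adjusted p = 0.0736 to 0.131) and SHMT2 (0.0653 to 0.141) were lost without any 1 of them, MTHFD2 without any 1 of 5 (0.0653 to 0.157), with RLE scaling (0.0507) and with the length trend removed (0.0627), SLC6A9 without any 1 of 3 (0.0862 to 0.212), and ALDH1L2 without Yijin-tang replicate 2 (0.0638). GLUL was the member called here that was not called for Soshiho-tang at the same dose against vehicle (0.11 ± 0.06). At 100 µg/mL, 5 rose (PHGDH, PYCR1, ASNS, PSAT1 and GLUL) and 1 fell (SLC7A1), where 7.89% of all genes rose and 6.82% fell. At 20 µg/mL SLC7A1 alone was called, lower (log2 fold change -0.22, SE 0.07, edgeR adjusted p = 0.0483), where 5.09% of all genes rose and 5.16% fell. This SLC7A1 call was lost without the filter on low counts (adjusted p = 0.0529), with only the groups compared (0.11), without any 1 vehicle library (0.0877 to 0.152) and without replicate 2 (0.0664) or 3 of the 20 µg/mL dose, the latter with a log2 fold change of -0.12 (0.315). At 100 µg/mL the SLC7A1 call was lost without any 1 vehicle library or replicate 3 of that dose (0.0738 to 0.231). There the GLUL call was lost without the filter (0.0624), without any 1 vehicle library, or without replicate 2 or 3 of that dose (0.0569 to 0.11), and the PYCR1 call without vehicle replicate 1 or 2 or replicate 3 of that dose (0.0784 to 0.215). Vehicle libraries differ from all treated ones in depth and mitochondrial share, and the part of this in these calls was not tested.

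For Okbyeongpung-san, 3 members rose between 20 and 500 µg/mL and 0 fell, where 0.979% of all genes rose and 0.613% fell. All 3, PHGDH, ASNS and CBS, are also among the 7 that rose with Yijin-tang. PHGDH had 66.4 and 63.0 CPM in replicates 2 and 3 at 20 µg/mL and 93.6 and 79.4 CPM at 500 µg/mL (log2 fold change 0.42, SE 0.09, edgeR adjusted p = 0.0163). ASNS had 104 and 106 and 125 and 132 CPM (log2 fold change 0.29, SE 0.07, edgeR adjusted p = 0.035). CBS had 23.4 and 22.9 and 30.9 and 28.0 CPM (log2 fold change 0.35, SE 0.07, edgeR adjusted p = 0.0128). Replicate 2 is batch E and replicate 3 batch D at each dose, and within each batch, with 1 library a dose, the higher dose was higher for all 3 genes. The same libraries gave the calls, so that this order is no separate test. In 13 members of the list the libraries at 500 µg/mL all lay above those at 20 µg/mL, and in 4 they all lay below. The share of all genes was not counted, so with 2 libraries a dose these counts do not set the members apart.

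These calls rest on few libraries. Counts with a library left out are given without the share of all genes called, so they describe the members only. None of the 3 was called without replicate 2 of the 500 µg/mL dose, and 9 members were called without replicate 3. Leaving out replicate 2 or 3 of the 20 µg/mL dose also ended all 3 calls, with adjusted p between 0.1 and 0.304, and so did a fit of only the 2 groups compared (0.76 for each). Against vehicle, 5 members rose at 500 µg/mL (PHGDH 0.56, ASNS 0.45, PYCR1 0.34, CBS 0.30 and PSAT1 0.18 on the log2 scale), where 7.19% of all genes rose and 7.76% fell. The count was 3 without vehicle replicate 1 and 12 without Okbyeongpung-san replicate 3. PSAT1 was lost with the batch term (0.14, adjusted p = 0.104), with the length trend removed (0.259), with only the groups compared (0.243), without any 1 vehicle library (0.0717 to 0.086) and without Okbyeongpung-san replicate 3, where its log2 fold change was 0.05 (0.542). PYCR1 and CBS were lost without Okbyeongpung-san replicate 2 (0.331 and 0.0885) and with only the groups compared (0.108 and 0.11), and PYCR1 also without vehicle replicate 1 (0.0763) or 2 (0.0615). In several transporters the 2 replicates of this dose differed widely, with SLC7A11 at 362 and 559.6 CPM and SLC38A2 at 228 and 331 CPM. At 100 µg/mL ASNS rose (log2 fold change 0.24, SE 0.06, edgeR adjusted p = 0.0202), where 4.75% of all genes rose and 4.74% fell. The ASNS call was lost with the batch term (adjusted p = 0.0617), without vehicle replicate 3 (0.0853) and without replicate 2 (0.141) or 3 (0.124) of the 100 µg/mL dose. At 20 µg/mL edgeR called 0 members, where 5.21% of all genes rose and 4.95% fell. At an unadjusted edgeR p below 0.05, 4 members were higher and 2 lower, and DESeq2 called 2 lower. The share of all genes at that unadjusted p was not counted.

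**Figure D4:**
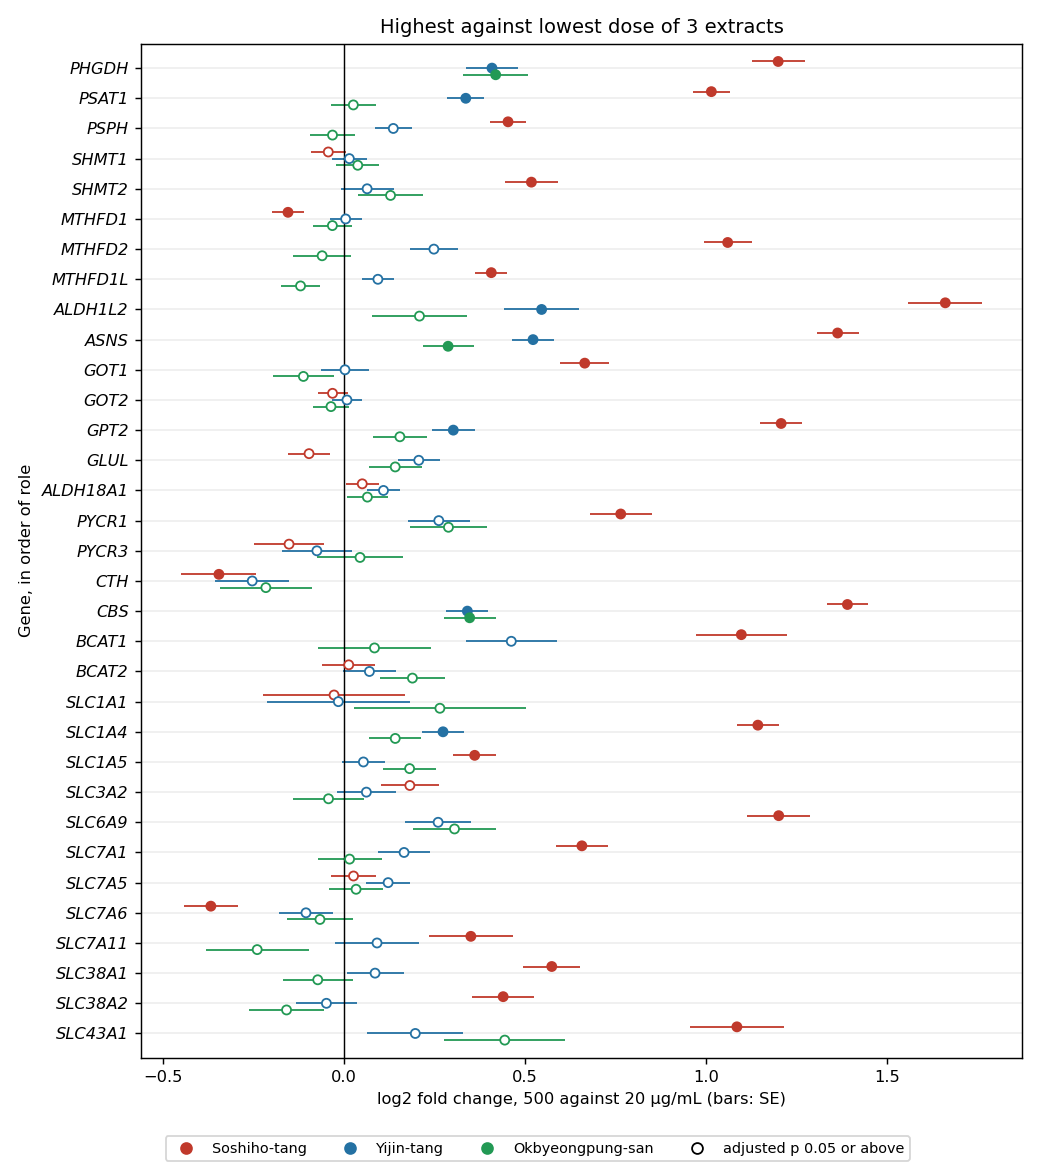
Log2 fold change of 500 against 20 µg/mL (x axis; bars are SE) of 33 members (y axis) for 3 extracts; filled points passed the edgeR test and open points did not. Soshiho-tang points of the members that rose lie to the right of both other extracts, from 0.35 for SLC7A11 to 1.66 for ALDH1L2, while MTHFD1, CTH and SLC7A6 lie to the left of 0.

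The extracts were compared with each other at the same dose. At 500 µg/mL, 21 members were higher with Soshiho-tang than with Yijin-tang and 3 were lower (MTHFD1, GLUL and SLC7A6), where 6.31% of all genes were higher and 6.29% lower. GPT2 (0.93 ± 0.06 log2, SE), CBS (0.96 ± 0.06) and ALDH1L2 (1.20 ± 0.10) were among the largest. The call of SLC7A11 was lost without any 1 of 5 of the 6 libraries (adjusted p = 0.0531 to 0.0872), that of GLUL without replicate 1 of either extract (0.0657 and 0.0688), that of SLC7A6 without replicate 2 of either (0.0581 and 0.0653) and that of MTHFD1 without replicate 3 of Yijin-tang (0.0533). Against Okbyeongpung-san at 500 µg/mL, 20 members were higher and 0 lower, where 9.14% of all genes were higher and 9.55% lower. Yijin-tang exceeded Okbyeongpung-san in 1 member, PSAT1 (log2 fold change 0.28, SE 0.06, edgeR adjusted p = 0.00979), where 0.853% of all genes were higher and 1.45% lower. That count ranged from 0 to 12, the first without replicate 2 and the second without replicate 3 of Okbyeongpung-san, and PSAT1 was also lost without replicate 3 of Yijin-tang (adjusted p = 0.0666) and with only the groups compared (0.577).

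The change from 20 to 500 µg/mL was itself compared between extracts. It was larger with Soshiho-tang than with Yijin-tang in 20 members and smaller in 1, GLUL (a call lost without any 1 of 8 of the 12 libraries, adjusted p = 0.0777 to 0.112), where it was larger in 2.27% of all genes and smaller in 1.76%. It was larger than with Okbyeongpung-san in 18 members and smaller in 0, where the shares of all genes were 3.28% and 3.73%. For ASNS the change was larger by 0.84 ± 0.08 (log2, SE) than with Yijin-tang and by 1.07 ± 0.09 than with Okbyeongpung-san. These tests share the Soshiho-tang libraries.

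Soyo-san was represented by 1 library a dose, and no test was made. On the log2(CPM + 0.5) scale 2 of 33 members were past 1.5-fold higher at 500 than at 20 µg/mL, where 1.44% of all genes passed that fold higher and 1.08% lower. They were SLC43A1, from 3.30 to 5.40 CPM (0.64), and CBS, from 22.5 to 34.3 CPM (0.60). With a pseudocount of 1 CPM, CBS alone remained past this fold. ASNS went from 97.9 to 143 CPM, PHGDH from 61.8 to 89.4 CPM and ALDH1L2 from 22.2 to 32.0 CPM. On the log2 scale PYCR1 changed by 0.54, CTH by -0.26, SLC7A11 by -0.22 and SLC38A2 by -0.18. The median was 0.11 over the 33 members and 0.005 over all genes. At 100 against 20 µg/mL 0 members were past 1.5-fold, where 0.928% of all genes were higher and 0.916% lower by that fold.

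Other genes of the same pathways were counted in the same comparison of Soshiho-tang at 500 against 20 µg/mL, and the counts were not tested against each other. Of all tested genes, 10.3% rose and 10.2% fell. Of 23 tested genes of the folate and methionine cycles, 2 rose and 2 fell. AMT of the glycine cleavage system rose (0.53 ± 0.19 log2, SE), with an edgeR adjusted p of 0.0494, just under the threshold. GLDC of the same system fell (-0.22 ± 0.06, edgeR adjusted p = 0.0153). The alternatives were run for the members only, so the stability of calls in these lists was not tested. Of 25 tested further amino acid enzymes, 6 rose and 2 fell, with ASS1, argininosuccinate synthase, at 0.40 ± 0.11, the asparaginase ASRGL1 at -0.52 ± 0.10 and HPD of tyrosine breakdown at -0.69 ± 0.16. Of 25 tested further transporters, 3 rose and 2 fell, with SLC6A15 for neutral amino acids at 0.82 ± 0.12, the mitochondrial glycine carrier SLC25A38 at 0.26 ± 0.07 and SLC7A7 at -0.41 ± 0.08. The medians of these 3 lists were -0.01, -0.04 and -0.06 on the log2 scale, against 0.45 for the members. The reference matters for these counts: against vehicle, 9 rose and 3 fell in the first list (median 0.13), 7 and 3 in the second (0.08) and 5 and 3 in the third (0.03), where 17.2% of all genes rose and 16% fell.

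Regulators of the response to amino acid shortage rose together with the members. Of 20 tested, 15 rose and 1 fell, where 10.3% of all genes rose and 10.2% fell. Their median log2 fold change was 0.60. Against vehicle 12 rose and 3 fell, with a median of 0.57, where 17.2% of all genes rose and 16% fell. The largest were DDIT3, a C/EBP-related transcription factor (2.18 ± 0.11 log2, SE), TRIB3, a pseudokinase (2.06 ± 0.08), and CHAC1, which degrades glutathione (1.95 ± 0.12). With Yijin-tang 2 of the 20 rose between 20 and 500 µg/mL, CHAC1 (0.68 ± 0.12) and TRIB3 (0.43 ± 0.08), and 0 fell. Of all genes 0.286% rose and 0.418% fell there. With Okbyeongpung-san edgeR called 0, where 0.979% of all genes rose and 0.613% fell.

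**Figure D5:**
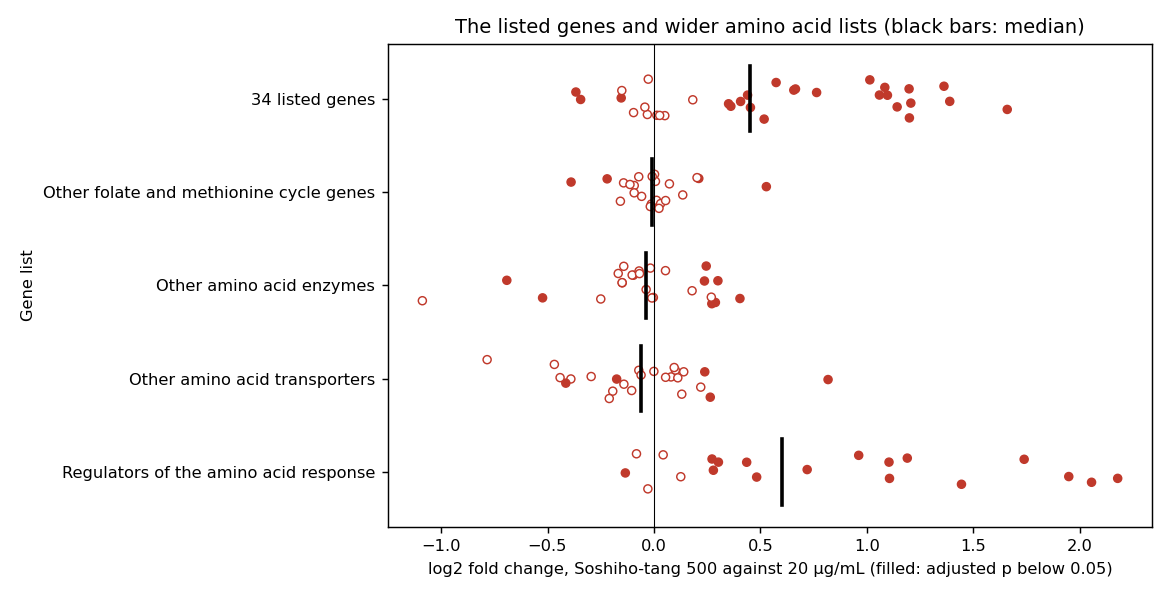
Log2 fold change of Soshiho-tang 500 against 20 µg/mL (x axis) of each tested gene in the members' list and 4 further lists (rows); filled points passed the edgeR test and black bars are medians. The medians of the members (0.45) and of the regulators (0.60) lie to the right of 0, and those of the other 3 lists within 0.06 of it.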

How the data were processed

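The authors deposited expected counts per gene, whose values need not be whole. The submitters' processing notes name RSEM 1.3.3, STAR 2.7.3a, FastQC 0.11.9 and Trim Galore 0.6.5, and the builds GRCh38 and hg38; the annotation and the strand setting are not given in the sources used here. The library kit keeps strand, per the labels' protocols. Of the table, 30 columns matched the libraries and 30 empty columns were left out. Values were rounded to whole numbers. One model was fitted to the 27 libraries in 10 replicated groups with edgeR 4.0.16 (TMM, filterByExpr, glmQLFit, glmQLFTest; R 4.3.3), which left 17459 genes. A call is an adjusted p (Benjamini-Hochberg, over these genes) below 0.05, and every adjusted p comes from that quasi-likelihood test unless another tool is named. The common dispersion of 0.00474 corresponds to a biological coefficient of variation of 6.89%. SE was obtained as log2 fold change (absolute) over the root of the F statistic. Scripts were tested on simulated counts. CPM and RPKM were computed from the counts with TMM over 30 libraries, and coordinates and exon lengths come from GENCODE 29 (GRCh38).

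The 18 comparisons set each dose against vehicle, doses of an extract against each other, and extracts against each other. Values per library are given for up to 14 members with the largest change called the same way against both references at 500 µg/mL of Soshiho-tang, for members that fell, and for those called at 500 against 20 µg/mL of Yijin-tang or Okbyeongpung-san; up to 3 genes are named per wider list, and a gene that the rule would name is not reported here. The members, lists and rules were chosen with earlier results of these data known. Alternatives were DESeq2 1.42.0, RLE scaling, no filter, a replicate block, a batch term, removal of a length trend, only the groups compared, and leaving out each library.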

Additional observations from a re-analysis of the deposited data

Results flagged for a closer look

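The change from 20 to 500 µg/mL differed between extracts in 21 members for Soshiho-tang against Yijin-tang and in 18 for Soshiho-tang against Okbyeongpung-san, by the edgeR interaction test at an adjusted p below 0.05. Values are differences between log2 fold changes, Soshiho-tang minus the other extract, and both sets of tests share the Soshiho-tang libraries.

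Against Yijin-tang the difference in serine and folate genes was 0.79 for PHGDH, 0.68 for PSAT1, 0.32 for PSPH, 0.45 for SHMT2, 0.81 for MTHFD2, 0.31 for MTHFD1L and 1.11 for ALDH1L2. In the other enzymes it was 0.84 for ASNS, 0.66 for GOT1, 0.90 for GPT2, 0.50 for PYCR1, 1.05 for CBS and 0.63 for BCAT1. In transporters it was 0.87 for SLC1A4, 0.31 for SLC1A5, 0.94 for SLC6A9, 0.49 for SLC7A1, 0.49 for SLC38A1, 0.49 for SLC38A2 and 0.89 for SLC43A1. GLUL was the member with a smaller change in Soshiho-tang, at -0.30; it had -0.10 ± 0.06 (log2 fold change, SE) with Soshiho-tang and 0.21 ± 0.06 with Yijin-tang, neither called. Some of these calls depended on single libraries or settings. That of BCAT1 was lost without any 1 of 11 of the 12 libraries (adjusted p = 0.0528 to 0.135), that of GLUL without any 1 of 8 (0.0777 to 0.112), without the filter on low counts (0.106) and with only the groups compared (0.0792), and that of SLC1A5 without any 1 of 8 (0.0544 to 0.11). Those of PYCR1 (0.0533 and 0.0565) and SLC38A2 (0.0552 and 0.0577) were each lost without any 1 of 2 libraries, and those of PSPH (0.134) and MTHFD1L (0.0936) without the filter.

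Against Okbyeongpung-san, with 2 libraries a dose, the difference was 0.78 for PHGDH, 0.99 for PSAT1, 0.48 for PSPH, 0.39 for SHMT2, 1.12 for MTHFD2, 0.53 for MTHFD1L and 1.45 for ALDH1L2. It was 1.07 for ASNS, 0.78 for GOT1, 1.05 for GPT2, 0.48 for PYCR1, 1.04 for CBS and 1.01 for BCAT1. For transporters it was 1.00 for SLC1A4, 0.89 for SLC6A9, 0.64 for SLC7A1, 0.65 for SLC38A1 and 0.60 for SLC38A2. The call of SHMT2 was lost without any 1 of 8 of the 10 libraries (adjusted p = 0.0527 to 0.168) and with only the groups compared (0.0731), and that of PYCR1 without any 1 of 7 (0.0566 to 0.135) and with only the groups compared (0.0722). That of SLC38A2 was lost without replicate 2 of Okbyeongpung-san at 500 µg/mL (0.0562) and with only the groups compared (0.0625).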

How the results depend on the processing

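No call of a single member changed sign under any alternative: of 2401 values, 2210 kept their call and 191 lost it, 156 of these with 1 library left out. Counts called from Soshiho-tang at 500 µg/mL, and its differences from the other extracts, stayed within 1.5 times the main count under every alternative. In the low-dose comparisons with vehicle, the count for Soshiho-tang at 20 µg/mL was 1, and 3 with no filter and 5 with only the groups compared. For Yijin-tang at 20 µg/mL it was 1, and 4 with no filter, 2 with the replicate block, 0 with only the groups compared and 2 with DESeq2. For Okbyeongpung-san it was 5 at 500 µg/mL, and 8 with the batch term and 2 with only the groups compared; 1 at 100 µg/mL, and 3 with no filter, 10 with only the groups compared and 3 with DESeq2; 0 at 20 µg/mL, and 2 with no filter, 1 with the replicate block, 9 with only the groups compared and 2 with DESeq2. For 500 against 20 µg/mL, only the groups compared gave 4 in place of 7 for Yijin-tang and 0 in place of 3 for Okbyeongpung-san. For Yijin-tang against Okbyeongpung-san the count of 1 became 4 with no filter, 2 with the replicate block, 5 with the batch term, 0 with only the groups compared and 2 with DESeq2. The count for Soyo-san of 2 became 1 with a pseudocount of 1 CPM. The cause of these differences was not tested. The share of all genes called under each alternative is not given here. These counts, and those with a library left out, therefore do not show whether the members changed apart from other genes.

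With each library left out in turn, against vehicle the count ranged from 22 to 24, 3 to 4 and 0 to 0 for Soshiho-tang at 500, 100 and 20 µg/mL, from 8 to 9, 3 to 8 and 0 to 2 for Yijin-tang, and from 3 to 12, 0 to 1 and 0 to 0 for Okbyeongpung-san. For 500 against 20 µg/mL it was 21 to 23, 5 to 7 and 0 to 9. Soshiho-tang at 100 against 20 µg/mL gave 0 to 0. Between extracts at 500 µg/mL it was 22 to 23, 20 to 22 and 0 to 12 (Soshiho-tang against Yijin-tang, Soshiho-tang against Okbyeongpung-san, Yijin-tang against Okbyeongpung-san), and for differences of dose effects 17 to 20 and 16 to 18. Where 1 Okbyeongpung-san library remained, it was assumed to vary like the other groups.

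The labels do not say that replicate numbers mark a shared culture, batch or day. Over 111 pairs of same-numbered libraries of different groups the correlation of deviations had a median of 0.019 (-0.188 to 0.305), with 19 over 0.1, and 21 of 27 libraries had a higher mean correlation with their own number. Yijin-tang at 100 and 20 µg/mL, which were not compared here, had all 3 same-numbered pairs over 0.1 (0.305, 0.121 and 0.206). The replicate numbers were not treated as pairing in the comparisons made. With the replicate block no call of a single member was lost. Depth limits SLC1A3, at no more than 1 count in a library.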
